A study of Mus musculus with 12 samples.

Results

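Solute carrier (SLC) genes encode membrane proteins that move amino acids, sugars, metals, nucleosides and other small molecules across the cell surface and the membranes of organelles. They were examined in mRNA sequencing of mouse bone marrow-derived macrophages (BMDMs), macrophages grown from marrow precursors in culture. The genes were selected by symbol and by level. Of the 23847 rows of the expression tables, 367 had a symbol of the SLC pattern, and 6 of them (Slc2a1, Slc7a2, Slc7a11, Slc11a1, Slc11a2 and Slc40a1) were set aside by name. Of the other 361 rows, 174 reached at least 1 FPKM (sequenced fragments per unit of transcript length, scaled to the mapped total of each library) in at least 1 of the 12 samples, and these 174 genes are described here.

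The cells were wild type (Wt), from mice aged 8 to 12 weeks, and all had been grown for 6 days with L929 cell supernatant, the source of the macrophage growth factor MCSF. One group was left untreated (control), 1 group received IL-4 at 20 ng/ml for 24 hr, 1 group received LPS at 100 ng/ml for 3 hr, and 1 group received both, with IL-4 first and LPS for the last 3 hr (IL-4+LPS). The LPS dose is that of the labels, and the study's methods give it in nM instead, so the sources disagree on its unit. IL-4 turns macrophages toward the alternatively polarized state, and LPS, a component of the outer membrane of bacteria, sets off inflammatory gene expression through Toll-like receptors. Each group held 3 samples, numbered 1 to 3 in the labels. Per the study these came from individual animals in 2 experiments, without saying which sample was in which, so the p-values below measure the spread between these cultures. As whole cultures were sequenced, fewer cells of a type and less RNA per cell cannot be told apart.

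SLC proteins are named by family, and members of 1 family often share a type of cargo. At the cell surface they take up nutrients and release products such as lactate. In lysosomes they return amino acids, peptides, nucleosides and sugars from digested material to the cytosol, and in mitochondria the SLC25 carriers link the matrix to the cytosol. Macrophages depend on all 3 settings because they degrade engulfed material, change their fuel use upon activation, and withhold metals from microbes. The 174 genes were sorted by known cargo or by family into 14 groups. The largest were the mitochondrial carriers (SLC25 family) with 34 genes and amino acids and peptides with 22. Zinc, copper and other metals had 22, and nucleotide sugars 17. Single genes placed by family can differ from the group name. The nucleotide sugar group includes Slc35b1 and Slc35b2, which carry ATP and a sulfate donor, and the SLC25 family includes Slc25a17, a carrier of peroxisomes. For 8 genes the cargo is not settled, and 3 carry the symbol pattern but do not encode transporters (Slc4a1ap, Slc7a6os and Slc9a3r1).

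The libraries differed in relative depth from 0.99 to 3.3 times that of control replicate 1, as read from the steps between low values, and their absolute depth is unknown. The 6 macrophage markers summed to 19158 to 20531 FPKM in control, 15379.7 to 16609 with LPS, 7556 to 7770 with IL-4 and 6551 to 6935 with both agents, with most of the sum in Lyz2, and none was at 0. Markers of B cells, T cells, fibroblasts, erythroid cells and dendritic cells summed to at most 4.36 FPKM in any sample, while 4 neutrophil precursor markers (Mpo, Elane, Camp and Ngp) summed to 64.8 to 142 FPKM in control, 72.2 to 182 with LPS, 24.3 to 65.4 with IL-4 and 51.4 to 128 with both. Their sum was lowest in replicate 1 of every group. The part of either list in the results was not tested. Replicate 1 stood apart from replicates 2 and 3 in all 4 groups, with scores of 15.5 to 33.3 against -18.6 to -4.45 on the first component of the variation within groups, which held 28.1% of it. LPS lowered most rows on the FPKM scale. Across the 11191 rows tested, the median difference on the log2(FPKM + 1) scale was -0.44 for LPS against control and -0.41 for IL-4+LPS against IL-4, which became -0.14 and -0.12 when the samples were scaled to a common median. A fall of an SLC gene after LPS is therefore set against these values below. The 174 genes took 0.74% to 0.88% of the summed FPKM of a sample.

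The selection rule used the same FPKM values, so the levels describe the genes and support nothing further. Of the 174 genes, 136 were at or above 1 FPKM in all 12 samples, and 5 were in 1 sample alone. The threshold was reached in samples of a single group by 10 genes, namely Slc15a2, Slc16a9, Slc25a23 and Slc9b2 in control, Slc27a3, Slc27a6 and Slc29a2 in IL-4, Slc6a4 in LPS, and Slc6a13 and Slc6a9 in IL-4+LPS. By the rule the highest value of such a gene lay in that group, so a difference between groups is a description. The genes just inside the threshold were Slc6a4, Slc9b2 and Slc6a13, with highest values of 1.07, 1.16 and 1.18 FPKM. Those just outside it were Slc12a2, Slc25a42 and Slc35g2, at 0.937, 0.884 and 0.842 FPKM. Of the 187 rows under the threshold, 81 were listed at 0 in all 12 samples.

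On this length-corrected scale the highest gene was Slc48a1, the heme transporter of the phagolysosome, with a mean of 287 FPKM over the 12 samples and a range of 213 to 407. It was followed by the lysosomal peptide and histidine transporter Slc15a3 (mean 249), the mitochondrial phosphate carrier Slc25a3 (219.7), the GLUT family sugar transporter Slc2a6 (199) and the ADP/ATP carrier Slc25a5 (182). The taurine transporter Slc6a6 and Slc3a2, the heavy chain that carries several amino acid transporters to the cell surface, had means of 166 and 132 FPKM. Only 8 of the 174 genes had a mean of 100 FPKM or more, and the median gene stood at 8.69 FPKM, against 8.84 FPKM for all 11191 rows.

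Promoter sequences are given for 5 genes on which the results turn. Slc2a6 had the largest rise after LPS, Slc6a12 the highest interaction term, and Slc27a3 passed the level threshold in IL-4 samples alone, while Slc30a4 and Slc30a1 are zinc transporters that went opposite ways in cells that received both agents. Each run is 300 bases of RefSeq sequence in build GRCm38.p6 (the mm10 assembly), from 250 bases before to 50 bases after an annotated start site, read 5′ to 3′ on the gene's strand. The motifs searched on both strands were GGGNNNTTCC, one form of the NF-κB site, TTCNNNNGAA, the palindrome of STAT factors such as STAT6, and TGCACNC or TGCGCNC, the metal response element bound by the zinc sensor Mtf1. Capitals mark the matches to the motif named for each gene, and no match in these runs overlapped a match of another of these motifs.
Slc2a6 (NF-κB motif searched, no match; chr2:27027949-27028248, minus strand): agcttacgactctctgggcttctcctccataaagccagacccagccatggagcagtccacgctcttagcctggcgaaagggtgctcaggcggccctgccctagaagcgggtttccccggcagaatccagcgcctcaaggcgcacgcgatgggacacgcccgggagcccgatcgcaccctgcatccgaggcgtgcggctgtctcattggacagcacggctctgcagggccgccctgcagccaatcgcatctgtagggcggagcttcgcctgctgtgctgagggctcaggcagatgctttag
Slc6a12 (NF-κB motif; first of 5 listed start sites, chr6:121342324-121342623, plus strand): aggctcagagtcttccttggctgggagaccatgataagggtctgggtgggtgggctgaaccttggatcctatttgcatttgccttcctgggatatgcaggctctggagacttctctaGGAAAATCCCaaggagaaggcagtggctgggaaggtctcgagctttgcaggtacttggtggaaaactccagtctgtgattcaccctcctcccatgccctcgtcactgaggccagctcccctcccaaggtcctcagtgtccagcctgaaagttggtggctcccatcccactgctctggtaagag
Slc27a3 (STAT motif; chr3:90389889-90390188, minus strand): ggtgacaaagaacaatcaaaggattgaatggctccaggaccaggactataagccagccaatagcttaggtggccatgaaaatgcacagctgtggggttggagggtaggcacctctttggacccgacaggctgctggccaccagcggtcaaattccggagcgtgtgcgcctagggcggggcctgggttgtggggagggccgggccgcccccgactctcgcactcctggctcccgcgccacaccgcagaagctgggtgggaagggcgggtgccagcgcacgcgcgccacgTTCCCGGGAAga
Slc30a4 (metal response element; chr2:122702614-122702913, minus strand): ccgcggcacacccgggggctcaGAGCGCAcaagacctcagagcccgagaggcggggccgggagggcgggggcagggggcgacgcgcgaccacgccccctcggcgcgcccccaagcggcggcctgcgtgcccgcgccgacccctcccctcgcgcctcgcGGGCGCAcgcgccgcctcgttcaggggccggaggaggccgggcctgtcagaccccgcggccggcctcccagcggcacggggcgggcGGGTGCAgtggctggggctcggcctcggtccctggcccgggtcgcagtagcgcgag
Slc30a1 (metal response element; chr1:191906531-191906830, plus strand): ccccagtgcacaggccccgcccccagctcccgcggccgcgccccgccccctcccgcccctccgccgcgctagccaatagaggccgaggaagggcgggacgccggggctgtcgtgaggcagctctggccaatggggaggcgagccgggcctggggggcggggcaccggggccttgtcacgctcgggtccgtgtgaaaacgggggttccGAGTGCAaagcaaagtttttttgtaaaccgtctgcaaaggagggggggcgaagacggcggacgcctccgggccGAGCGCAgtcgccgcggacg
Counting the start site as position 0, the match of Slc6a12 lay at -133 to -124, and this start site is upstream of the Slc6a12 locus of the expression tables, which begins at base 121346697. The other listed start sites of Slc6a12 held no match of the NF-κB motif. The match of Slc27a3 lay at 38 to 47. Slc30a4 held 3 metal response elements, at -228 to -222, -92 to -86 and -6 to 0, and Slc30a1 held 2, at -43 to -37 and 30 to 36. A promoter was listed for 133 of the 174 genes, and a gene was counted if any of its listed start sites held the motif. The NF-κB motif was in 10 of them (7.52%) against 6.31% of all 27025 genes with a listed promoter, and the STAT motif in 9 (6.77%) against 8.01%. The metal response element was in 60 (45.1%) against 28.2% of all, and in 11 of the 19 metal transporter genes with a promoter. It was in 10 of 23 genes that rose after LPS (43.5%), 37 of 81 that fell (45.7%) and 13 of 29 that did not pass (44.8%). Unlike the 174 genes, the set of all listed promoters was not filtered by level. Among genes that rose after LPS, 3 of 23 held the NF-κB motif, and among those that rose after IL-4, 2 of 22 held the STAT motif. These are matches of letters, described without a test.

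LPS was followed by lower FPKM of most SLC genes and by sharp rises of a few. Against control, 27 of the 174 genes (15.5%) were higher and 111 (63.8%) were lower at an adjusted p under 0.05, against 16.9% higher and 57.7% lower among all rows tested. With samples scaled to a common median, 38 were higher and 80 lower, against 26.5% and 39.8% of all rows. With quantile normalization the counts were 40 and 72, against 25.9% and 38.7%. All 27 rises and 65 of the 111 falls passed under both scalings, and 1 fall, of the phosphate transporter Slc20a2, turned into a rise under quantile normalization (-0.25 became 0.34). In Slc20a2 the call was lost without any 1 of 3 samples (control replicates 2 and 3 and LPS replicate 3), at -0.23 to -0.21. Without replicate 1 the counts were 29 and 124, against 19.5% and 62.8% of all rows. The median difference over the 174 genes was -0.54, against -0.44 over all rows, so the shares of the SLC genes were near those of the whole table.

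The substrate groups spread around that value. Sugar and polyol transporters had the lowest median of a group with settled cargo, -1.11, with 10 of 11 genes lower and 1 higher, or 8 lower and 1 higher under median scaling. Vitamin and heme transporters had 6 of 7 lower. In the nucleotide sugar group, named for transporters that feed glycosylation in the Golgi, 14 of 17 were lower and none higher. With median scaling, that group had 1 higher and 10 lower. Of the 34 SLC25 carriers, 24 were lower and 5 higher, or 18 and 7 under median scaling. At the other end, the 5 monocarboxylate and dicarboxylate transporters had a median of 0.16, the 1 group median above 0, with 2 higher and 2 lower. Metal transporters had a median of -0.16, with 7 of 22 higher and 8 lower, and amino acid and peptide transporters -0.33, with 6 of 22 higher and 10 lower. Under median scaling the metal transporters had 10 higher and 6 lower.

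**Figure D1:**
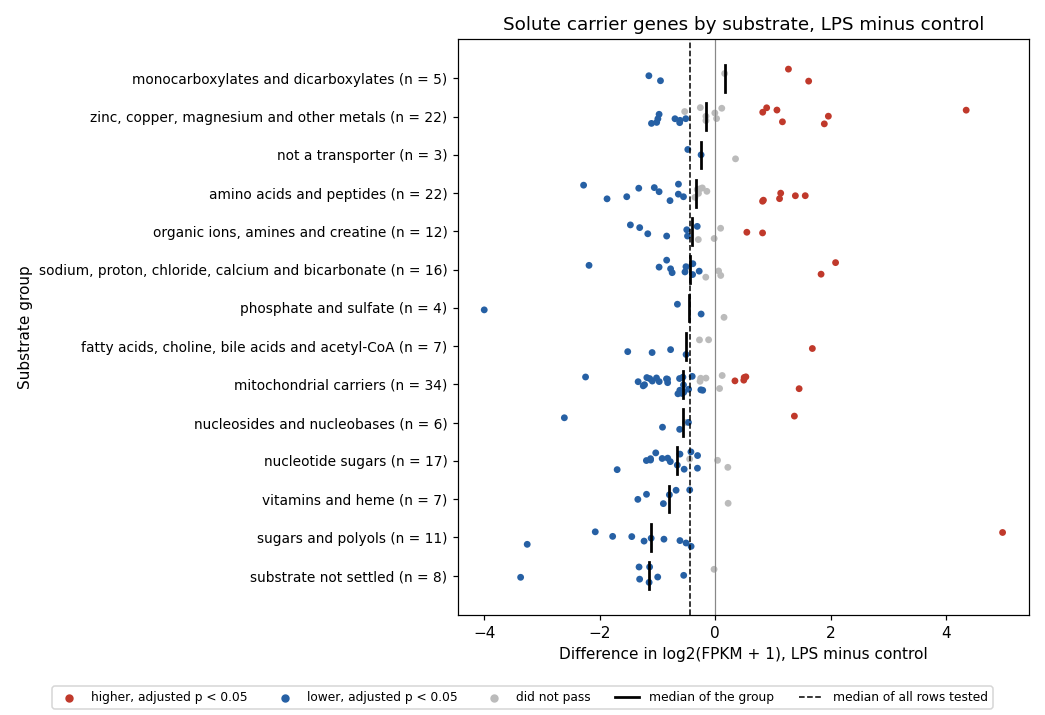
Difference in log2(FPKM + 1) between LPS and control (horizontal axis) for each of the 174 SLC genes, by substrate group (vertical axis). Points are genes, coloured by whether limma's adjusted p was under 0.05; short bars are group medians and the dashed line is the median of all rows tested, -0.44. Sugar and polyol transporters lie left of that line apart from Slc2a6 at 4.97 and Slc2a3 at -0.42, and metal transporters reach from -1.11 to 4.34.

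The largest rise was that of Slc2a6 (chromosome 2, 27021363 to 27027998, minus strand), which encodes GLUT6, a hexose transporter found on lysosomal membranes. Its coordinates, like those of other genes below, are from GENCODE release M21 on mm10. It stood at 8.52, 8.99 and 7.91 FPKM in the control samples and at 236, 346 and 317 FPKM after LPS. The groups did not overlap, and the means (8.47 ± 0.541 and 299.7 ± 56.7, SD, n = 3) differed 35.4-fold. On the log2(FPKM + 1) scale, which understates changes of low genes, the difference was 4.97 ± 0.20 (standard error), with an adjusted p of 1.26e-08 by limma. IL-4 alone brought it to 21.7, 16.8 and 17.05 FPKM (1.03 ± 0.20, adjusted p = 0.00259). In IL-4+LPS samples it reached 327, 557 and 518 FPKM, and the values of replicates 2 and 3 were the highest of the 174 genes in any sample. They were above LPS alone by 0.62 (adjusted p = 0.0388), with the higher value in IL-4+LPS in each of the 3 replicate numbers, but the 2 groups overlapped and the call was lost without any 1 of 9 samples (control replicates 1, 2 and 3, IL-4 replicates 2 and 3, LPS replicates 1 and 3 and IL-4+LPS replicates 2 and 3), at 0.46 to 0.67. The glucose transporter gene Slc2a3 was low throughout, with means of 1.93 FPKM in control and 1.203 after LPS (-0.42 ± 0.14, adjusted p = 0.0192), a fall that changed sign under quantile normalization (0.15) and for which the call was lost without any 1 of 2 samples (control replicate 3 and LPS replicate 1), at -0.33 to -0.27.

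Metal transporters held 3 of the 5 largest rises. Slc39a14 (chromosome 14, 70303469 to 70351425, minus strand) encodes ZIP14, which brings zinc, manganese and non-transferrin iron into cells. Its values were 2.89, 4.27 and 4.08 FPKM in control and 71.8, 108 and 108 FPKM after LPS, a 25.7-fold difference of means without overlap (4.34 ± 0.28, adjusted p = 2.65e-07). Slc30a4 (chromosome 2, 122681233 to 122702663, minus strand) encodes ZnT4, which loads zinc into vesicles. It went from 3.405, 3.54 and 3.76 FPKM to 14.8, 17.5 and 17.96 FPKM (4.701-fold; 1.96 ± 0.11, adjusted p = 9.04e-08). The copper transporter genes rose together: Slc31a2 from a mean of 42.7 ± 2.42 to 160.4 ± 10.3 FPKM (1.89, adjusted p = 9.32e-08), and Slc31a1, the high-affinity copper importer, from 25.6 ± 1.23 to 54.6 ± 3.81 FPKM (1.07, adjusted p = 3.85e-07). The zinc importer gene Slc39a1 also rose, from 64.6 to 114 FPKM, although 21.8% of its 50-base words occur in a pseudogene and its reads can be shared. Slc39a13 and Slc30a6 were the other zinc transporter genes that rose, by 1.16 and 0.89.

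The zinc exporter gene and the zinc-binding metallothioneins showed the split of replicate 1. Slc30a1, the zinc exporter of the cell surface, was at 20.6, 17.2 and 16.8 FPKM in control and at 18.6, 9.199 and 10.6 FPKM after LPS, where replicate 1 overlapped the control samples and replicates 2 and 3 lay below them. Its difference did not pass (-0.53 ± 0.34, adjusted p = 0.18), and without replicate 1 it was -0.73, past the threshold. In IL-4+LPS samples it was at 12.5, 4.298 and 4.39 FPKM against 26.9, 22.97 and 22.4 in IL-4 samples (-1.78 ± 0.34, adjusted p = 0.000788). The metallothionein gene Mt1 was at 259, 946 and 885 FPKM and Mt2 at 223, 1015 and 1030 FPKM in LPS replicates 1, 2 and 3, so both were lowest in the library where Slc30a1 was highest. Their part in the result was not tested.

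Further rises were seen in ion, choline, lactate and nucleoside transporters. Slc4a7, a sodium bicarbonate cotransporter, rose from 8.44, 9.55 and 10.7 to 43.8, 41.9 and 44.9 FPKM (4.55-fold; 2.08 ± 0.09, adjusted p = 1.32e-08). Slc12a4, the potassium chloride cotransporter KCC1, went from 15.8 ± 1.92 to 59.2 ± 10.2 FPKM (1.83, adjusted p = 3.27e-06). Slc44a1, the choline transporter CTL1, went from 28.1 ± 1.16 to 92.9 ± 13.2 FPKM (1.68, adjusted p = 6.71e-07). Slc16a3 encodes MCT4, which releases lactate from glycolytic cells. It was at 14.1, 16.04 and 16.3 FPKM in control and at 41.2, 53.5 and 54.6 FPKM after LPS (1.61 ± 0.14, adjusted p = 1.9e-06). Slc28a2, a concentrative nucleoside transporter, was low, at 4.402, 3.77 and 3.29 FPKM in control, and rose to 8.53, 13.7 and 12.5 FPKM (1.37, adjusted p = 2.13e-05), and 35.4% of its 50-base words occur in the predicted gene Gm14085, which ranged from 0.476 to 4.34 FPKM.

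Among amino acid and peptide transporters, 6 rose after LPS: Slc16a10, Slc15a3, Slc7a1, Slc7a7, Slc7a8 and Slc7a5. Slc16a10, an aromatic amino acid transporter, had the largest difference, from 16.1, 21.1 and 20.9 to 55.4, 58.5 and 61.9 FPKM (1.56 ± 0.15, adjusted p = 4.31e-06). Slc15a3 went from 116, 113 and 103 to 258, 324 and 292 FPKM (2.63-fold; 1.39 ± 0.11, adjusted p = 1.03e-06). As 28.1% of its exon bases overlap Tmem132a on the other strand (12.4 to 34.6 FPKM) and the library kit did not mark strand, some reads could belong to either gene. Slc7a7, a light chain that exports arginine and lysine, went from 15.1 to 34.01 FPKM, and Slc7a8 from 19.6 to 35.6 FPKM. The arginine transporter gene Slc7a1 had means of 2.31 and 6.23 FPKM, and the leucine transporter gene Slc7a5 of 0.997 and 2.604. The shared heavy chain Slc3a2 did not pass in any contrast and ranged from 114 to 148 FPKM over all 12 samples.

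The deepest fall after LPS was that of Slc26a11 (chromosome 11, 119355557 to 119381079, plus strand), a sulfate and anion transporter. It was at 24.6, 22.3 and 23.6 FPKM in control and at 0.68, 0.449 and 0.467 FPKM after LPS, a mean 44.2 times lower (-4.001 ± 0.13, adjusted p = 3.45e-09). Slc46a3 (chromosome 5, 147878437 to 147894815, minus strand), a lysosomal transporter of unsettled cargo, fell from 56.9, 48.3 and 48.8 to 5.304, 3.77 and 3.27 FPKM (-3.37 ± 0.18, adjusted p = 9.47e-08). Slc45a4 (chromosome 15, 73577424 to 73645762, minus strand), sorted with the sugar transporters by family, fell from 18.3, 19.3 and 18.1 to 1.17, 0.962 and 1.01 FPKM (-3.26 ± 0.08, adjusted p = 1.04e-09). No sample overlapped between the groups for these 3 genes, and each remained a fall past the threshold under both scalings.

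Genes of lysosomes and endosomes were among the further falls. Slc29a3, the lysosomal nucleoside transporter ENT3, went from 27.2, 26.5 and 24.3 to 4.59, 2.82 and 3.000 FPKM (-2.61 ± 0.27, adjusted p = 8.61e-06). Slc36a1 and Slc36a4, amino acid transporters of the same family, fell by 1.88 and 1.53 on the log2 scale. Slc38a9, the lysosomal arginine sensor upstream of mTORC1, fell by 1.33, from a mean of 3.87 to 0.948 FPKM. Slc17a5, which exports sialic acid from lysosomes, had means of 21.5 and 5.55 FPKM, and Slc2a8, an intracellular hexose transporter, of 10.2 and 3.12 FPKM. The peptide transporters Slc15a3 and Slc15a4, which both serve lysosomes and endosomes, went opposite ways, with Slc15a4 falling from 35.2, 40.1 and 39.2 to 27.3, 22.9 and 22.3 FPKM (-0.64 ± 0.09, adjusted p = 9.83e-05).

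At other membranes, Slc43a2, which carries neutral amino acids out of cells, fell from 127, 136 and 135 to 37.8, 22.5 and 21.7 FPKM (-2.28 ± 0.25, adjusted p = 1.29e-05). Slc37a2, a sugar phosphate exchanger of the endoplasmic reticulum that is abundant in macrophages, fell from 112, 149 and 147 to 30.6, 32.8 and 30.2 FPKM (-2.08 ± 0.13, adjusted p = 2e-07). Its family members Slc37a1, Slc37a3 and Slc37a4 fell by 0.61, 1.23 and 1.11, of which that of Slc37a1 did not pass under either scaling. The mitochondrial sodium calcium exchanger Slc24a6 went from 40.8 ± 2.22 to 8.21 ± 1.01 FPKM and the mitochondrial carrier Slc25a45 from 39.7 ± 1.998 to 8.21 ± 4.51 FPKM. In Slc25a45 the LPS values were 13.4, 5.99 and 5.24 FPKM, with replicate 1 above replicates 2 and 3. The creatine transporter Slc6a8 went from 35.9 to 12.4 FPKM, and the fatty acid transporter Slc27a1 from 58.5 to 19.6 FPKM.

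**Figure D2:**
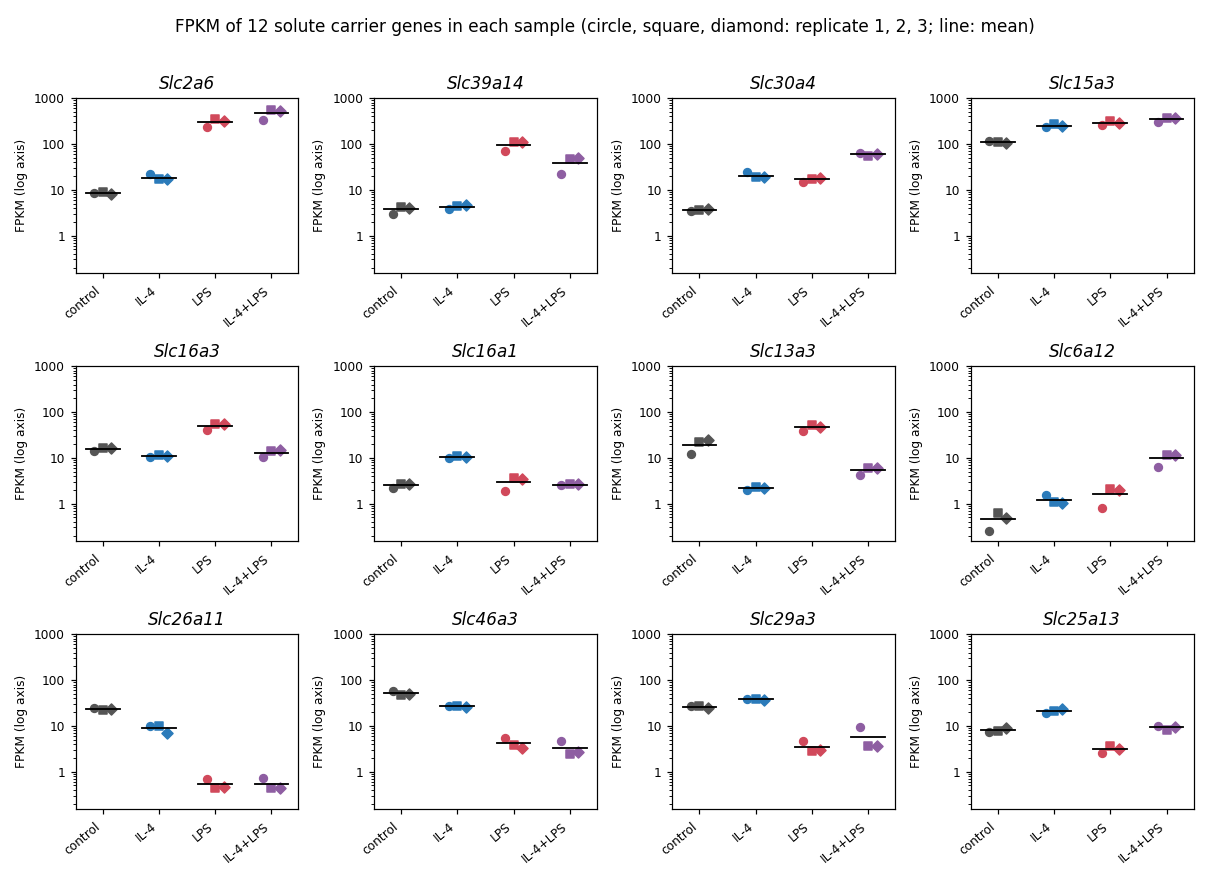
FPKM (vertical axis, log scale) in each of the 12 samples for 12 SLC genes, by treatment group (horizontal axis); circles, squares and diamonds are replicates 1, 2 and 3 and bars are means. Slc26a11, Slc46a3 and Slc29a3 are lowest in the 6 samples that received LPS, Slc2a6 is highest in them, and Slc16a1 is high in the 3 IL-4 samples.

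IL-4 was followed by rises and falls in nearly equal numbers. Against control, 32 of the 174 genes (18.4%) were higher and 42 (24.1%) lower, against 16.0% and 21.0% of all rows, so the shares were again near those of the table. With quantile normalization 43 were higher and 37 lower, against 18.7% and 18.3% of all rows. Without replicate 1 there were 48 and 53, against 21.5% and 29.4%. The median difference over the 174 genes was 0.00 against -0.05 for all rows. By group, 4 of the 5 monocarboxylate and dicarboxylate transporters and 8 of the 16 transporters of sodium, protons, chloride, calcium and bicarbonate were lower, with 1 and 3 higher. The fatty acid and choline group had 3 of 7 higher and 2 lower. The 3 included Slc27a3, which reached the level threshold in IL-4 samples alone, so the count is a description. Metal transporters had 6 of 22 higher and 4 lower, and amino acid and peptide transporters 5 of 22 and 4. SLC25 carriers had 6 of 34 higher (17.6%), close to the share of all rows, and 4 lower (11.8%), below the 21.0% of all rows.

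**Figure D3:**
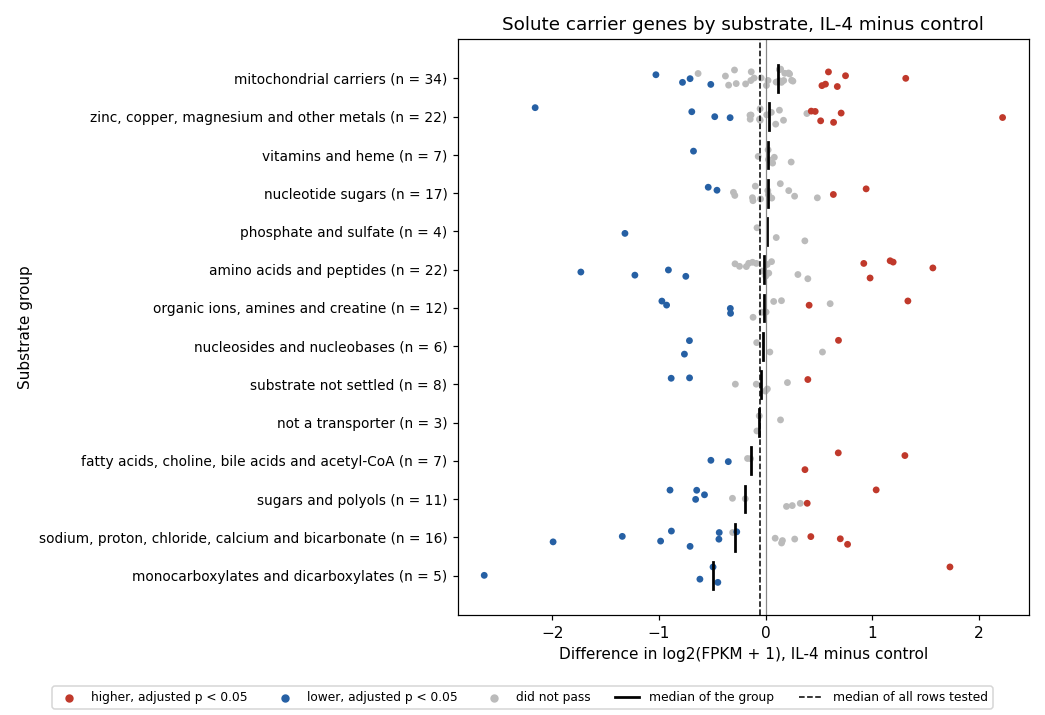
Difference in log2(FPKM + 1) between IL-4 and control (horizontal axis) for each of the 174 SLC genes, by substrate group (vertical axis), with the colours and lines of the plot for LPS. Most points lie between -1 and 1, with Slc30a4 at 2.22 and Slc13a3 at -2.64 at the ends.

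The largest rise with IL-4 was again in Slc30a4, at 23.9, 18.6 and 18.7 FPKM against 3.405, 3.54 and 3.76 in control (5.71-fold; 2.22 ± 0.11, adjusted p = 2.51e-07). Slc16a1 (chromosome 3, 104638668 to 104658462, plus strand) encodes MCT1, a lactate and pyruvate transporter. It was at 2.22, 2.62 and 2.62 FPKM in control and at 9.89, 11.2 and 10.6 FPKM with IL-4 (4.23-fold; 1.73 ± 0.15, adjusted p = 1.4e-05). Slc25a13, the mitochondrial aspartate glutamate carrier citrin, went from 7.44, 7.64 and 8.87 to 19.4, 21.2 and 23.3 FPKM (1.31 ± 0.12, adjusted p = 1.79e-05), and its relative Slc25a12 did not pass, with means of 14.7 and 14.7 FPKM. Slc1a5, the glutamine transporter ASCT2, went from 9.05, 10.9 and 11.6 to 21.98, 28.7 and 25.5 FPKM (1.19 ± 0.19, adjusted p = 0.00073). Slc15a3 rose 2.26-fold to 232, 271 and 246 FPKM (1.17 ± 0.11, adjusted p = 1.91e-05).

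Some of the IL-4 rises were of genes close to the detection threshold. Slc36a2, a small amino acid transporter, went from 0.224, 0.447 and 0.475 to 2.03, 4.54 and 3.04 FPKM, Slc18a1, a vesicular monoamine transporter, from 0.827, 0.726 and 1.04 to 2.47, 4.896 and 4.01 FPKM, and Slc27a3, an acyl-CoA synthetase of the fatty acid transporter family, from 0.161, 0.151 and 0.122 to 1.87, 2.09 and 1.55 FPKM. Their differences were 1.57, 1.33 and 1.30 on the log2(FPKM + 1) scale (adjusted p = 0.000116 and 0.000279 for the first and second genes). For Slc27a3, selected through its IL-4 samples alone, the difference is a description without a test. Among abundant genes, the ADP/ATP carrier Slc25a5 went from 138, 163 and 161 to 234, 277 and 266 FPKM (0.75 ± 0.09, adjusted p = 0.000101), with 33.8% of its 50-base words also in pseudogenes. Slc35b1, which brings ATP into the endoplasmic reticulum, went from 39.4 ± 5.21 to 76.5 ± 9.09 FPKM, and the citrate carrier Slc25a1 from 30.4 ± 3.96 to 48.96 ± 6.03 FPKM (0.94 and 0.67, adjusted p = 0.000201 and 0.00188).

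The deepest fall with IL-4 was in Slc13a3 (chromosome 2, 165405028 to 165473230, minus strand), the sodium dicarboxylate cotransporter NaDC3, which takes up succinate. It was at 12.2, 21.8 and 24.00 FPKM in control and at 2.02, 2.29 and 2.13 FPKM with IL-4, 8.98 times lower by the means (-2.64 ± 0.22, adjusted p = 8.54e-06). The zinc importer gene Slc39a4 fell from 7.11, 5.91 and 5.67 to 0.786, 0.833 and 0.283 FPKM (-2.16 ± 0.22, adjusted p = 3.44e-05). Slc9a9, an endosomal sodium proton exchanger, fell from 62.1, 48.6 and 51.6 to 15.3, 12.1 and 11.3 FPKM (-1.99 ± 0.20, adjusted p = 3.37e-05). Slc7a7 fell from 14.8, 15.6 and 14.9 to 4.505, 3.899 and 3.23 FPKM (-1.73 ± 0.14, adjusted p = 6.99e-06). None of these 4 genes had overlapping groups.

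Iron and calcium carriers were among the smaller falls. Slc25a37, mitoferrin 1, which brings iron into mitochondria, went from 10.97 ± 0.791 to 4.86 ± 0.227 FPKM (-1.03, adjusted p = 0.000174), and Slc25a28, mitoferrin 2, from 13.3 ± 1.15 to 9.01 ± 0.464 FPKM (-0.51, adjusted p = 0.00163). Slc24a3, a potassium-dependent sodium calcium exchanger, went from 1.24, 2.82 and 2.65 to 0.156, 0.276 and 0.297 FPKM (-1.34, adjusted p = 0.000598). Slc26a11, Slc43a2, Slc45a4 and Slc46a3, which fell with LPS, were also lower with IL-4 alone, by 1.32, 1.23, 0.90 and 0.89 on the log2 scale. The LPS and IL-4 contrasts share the control samples.

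**Figure D4:**
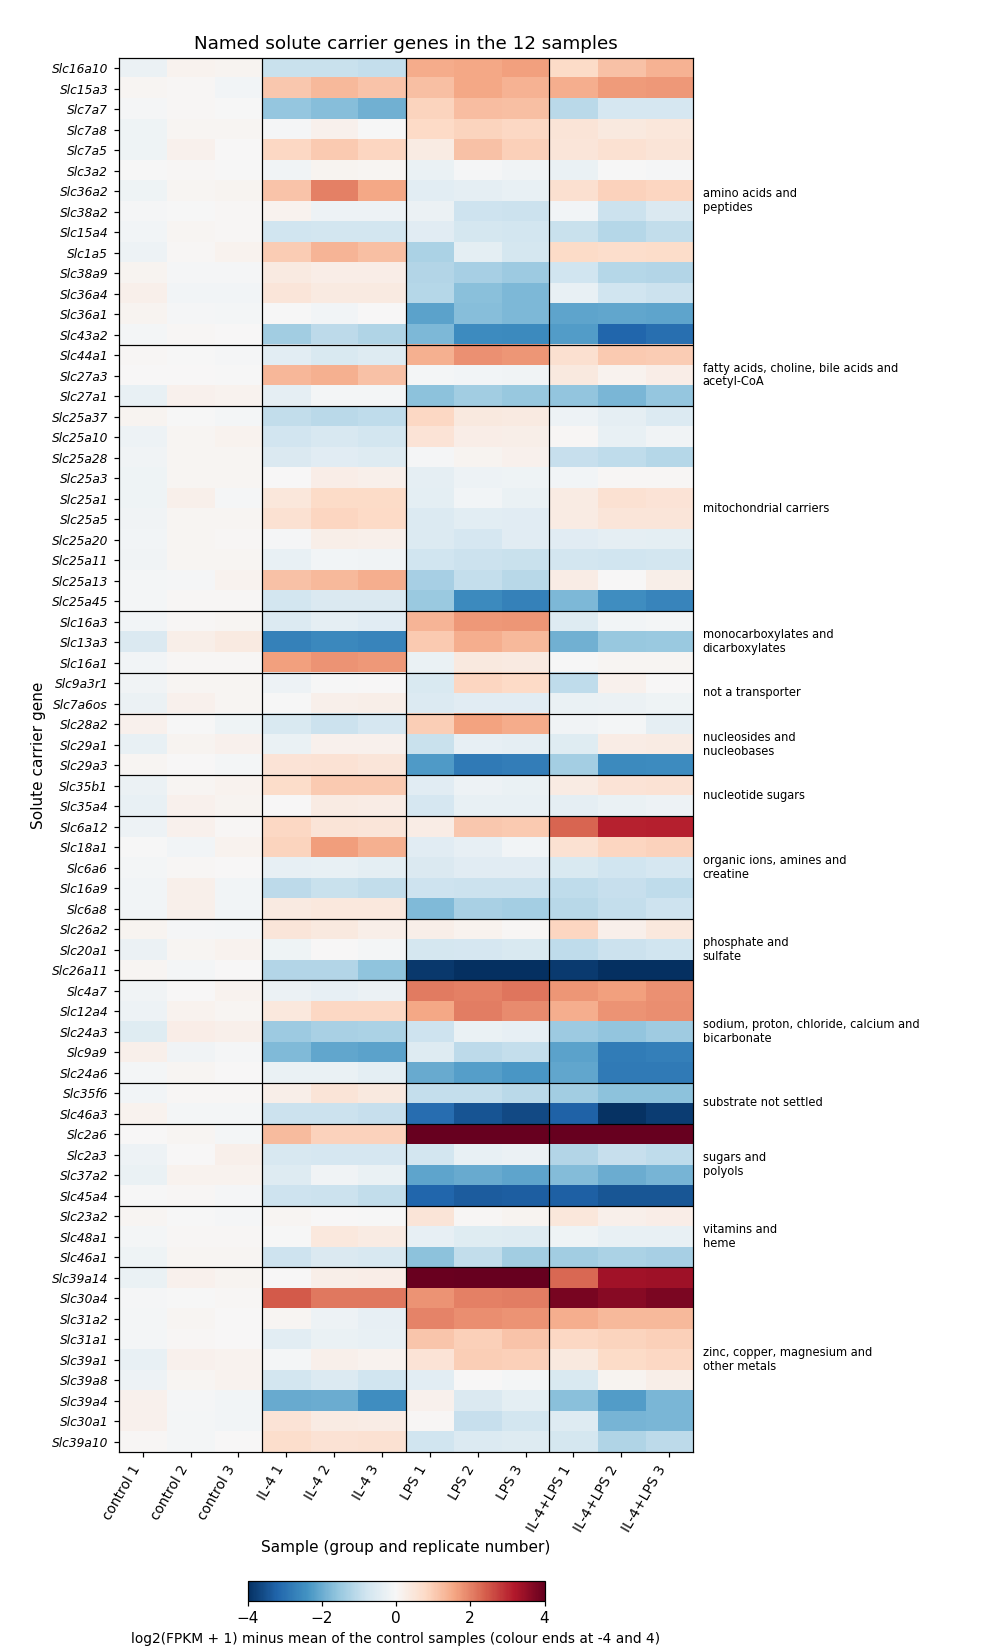
Named SLC genes (rows, by substrate group) in the 12 samples (columns), as log2(FPKM + 1) minus the mean of the control samples, with the colour scale ending at -4 and 4. Red is above control and blue below; Slc2a6 and Slc39a14 are red in the LPS columns and Slc26a11 blue in them, while Slc13a3 is blue in the IL-4 columns and red in the LPS columns.

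In cells pretreated with IL-4, LPS was again followed by more falls than rises. Between IL-4+LPS and IL-4, 30 genes (17.2%) were higher and 113 (64.9%) lower, against 15.0% and 57.9% of all rows. Median scaling gave 37 and 87, against 23.5% and 36.3%, and quantile normalization 39 and 79, against 22.0% and 37.3%. Without replicate 1 the counts were 33 and 120, against 17.4% and 63.8% of all rows. Of these calls, 29 rises and 70 falls passed under both scalings. Slc2a6 (4.56), Slc39a14 (2.85), Slc6a12 (2.23), Slc16a10 (2.03) and Slc4a7 (2.02) led the rises. Slc46a3, Slc29a3, Slc26a11, Slc45a4 and Slc24a6 led the falls, at -2.77, -2.68, -2.67, -2.48 and -2.27. Slc36a1 (15.6 to 2.92 FPKM) and Slc35f6 (65.1 to 16.1 FPKM) fell by 2.08 and 1.95.

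In LPS-exposed cells, prior IL-4 raised 31 genes (17.8%) and lowered 37 (21.3%), against 15.0% and 15.8% of all rows. Without replicate 1 the counts were 45 and 57, against 21.0% and 25.9%. The largest rise was in Slc6a12 (chromosome 6, 121343076 to 121365775, plus strand), the betaine and GABA transporter BGT1, an osmolyte carrier. It stood at 0.785, 2.08 and 2.02 FPKM with LPS and at 6.22, 11.3 and 11.6 FPKM with both agents (5.95-fold; 2.02 ± 0.26, adjusted p = 0.000183). It was at 0.247, 0.633 and 0.492 FPKM in control and 1.56, 1.07 and 1.01 FPKM with IL-4, so the samples that received both lay above all others. Its relative Slc6a13 reached the level threshold in IL-4+LPS samples alone. Slc6a13 had a mean of 0.984 FPKM with both agents and at most 0.201 in the other groups, a description given that rule. Slc30a4 was at 62.6, 55.5 and 61.3 FPKM with both, 3.56 times the LPS mean (1.78 ± 0.11, adjusted p = 1.12e-06). Slc1a5 and Slc25a13 were higher too, by 1.52 and 1.32 (adjusted p = 0.000163 and 1.81e-05).

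The genes lowered by prior IL-4 in LPS-exposed cells included several that LPS alone had raised. Of the 27 genes higher with LPS against control, 13 fell with prior IL-4 in LPS-exposed cells, 4 rose and 10 did not pass. The 2 contrasts share the LPS samples, and the same count was not made over all rows, so this count is given as a description. Slc13a3 was at 39.5, 52.4 and 47.2 FPKM with LPS and at 4.22, 5.87 and 5.97 FPKM with both (-2.90 ± 0.22, adjusted p = 4.6e-06). Slc7a7 was at 28.8, 36.9 and 36.4 FPKM with LPS and at 6.63, 9.09 and 9.12 FPKM with both (-1.92 ± 0.14, adjusted p = 3.63e-06). Slc16a3 was at 41.2, 53.5 and 54.6 FPKM with LPS and at 10.4, 14.2 and 14.5 FPKM with both (-1.86 ± 0.14, adjusted p = 4.07e-06). In all 3 genes the groups did not overlap. Slc13a3 and Slc7a7 were also lower with IL-4 in cells without LPS, and their interaction terms, described below, did not pass. That of Slc16a3 did. Slc28a2 (-1.56), Slc39a14 (-1.33) and Slc25a28 (-1.10) were also lower.

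Whether IL-4 altered the LPS response itself was tested by the interaction term, which is the difference that LPS made in IL-4-treated cells less the difference it made in cells without IL-4. It was positive in 10 genes (5.75%) and negative in 15 (8.62%), against 4.58% and 4.63% of all rows. Among these 25 genes, Slc27a3, Slc6a13 and Slc16a9 reached the level threshold in 1 group alone, so the rule favoured a difference between groups. These counts moved with single libraries. Without replicate 1 there were 27 positive and 32 negative terms, against 13.2% and 12.4% of all rows. The positive count fell to 4 without control replicate 3, IL-4 replicate 3, LPS replicate 3 or IL-4+LPS replicate 2, to 5 without IL-4 replicate 2, and to 6 without LPS replicate 2 or IL-4+LPS replicate 3, and the negative count to 9 without LPS replicate 3. Over all rows the 512 positive terms became 311 to 374 in these fits, and the 518 negative terms 334 without LPS replicate 3. The strongest negative term was in Slc16a1 (-1.84 ± 0.22, adjusted p = 0.000684). Its values with LPS were 1.89, 3.57 and 3.47 FPKM and with both 2.48, 2.64 and 2.65 FPKM, so the IL-4 level of 10.5 FPKM was not seen in cells that also received LPS. Slc16a3, the other lactate transporter gene, had a term of -1.41 ± 0.19, adjusted p = 0.00151. LPS raised it 3.22-fold in the absence of IL-4, and after IL-4 the means were 11.1 and 13.03 FPKM, a difference that did not pass (0.20 ± 0.14, adjusted p = 0.197) but did with median scaling (0.54).

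Metal and amino acid transporters had negative terms as well. The term of Slc39a14 was -1.50 ± 0.39, adjusted p = 0.0397, with 22.04, 46.9 and 48.5 FPKM in cells that received both agents. In this gene the call was lost without any 1 of 8 samples (control replicates 1, 2 and 3, IL-4 replicates 1, 2 and 3 and LPS replicates 2 and 3), at -1.58 to -1.36. Slc39a10, a zinc importer, averaged 10.4 FPKM in control, 16.7 with IL-4, 6.45 with LPS and 4.79 with both (-1.01 ± 0.18, adjusted p = 0.00577). Slc7a5 was at 0.779, 1.22 and 0.991 FPKM in control, 2.53, 3.14 and 2.64 with IL-4, 1.51, 3.44 and 2.86 with LPS and a mean of 1.89 with both (-1.20 ± 0.26, adjusted p = 0.0158), so either agent raised it from a low level and the joint values were not above those of IL-4 alone. Slc15a3 had a term of -0.92 ± 0.15 (adjusted p = 0.00404), with 302, 362 and 373 FPKM in cells that received both. Each agent alone raised it. The joint mean was the highest (346 against 291 FPKM with LPS alone), although the samples of these 2 groups overlapped. The joint level fell short of the sum of the 2 log2 differences.

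Positive terms were led by Slc6a12 (1.42 ± 0.36, adjusted p = 0.0353) and Slc26a11 (1.33 ± 0.18, adjusted p = 0.00156). For Slc6a12 the call was lost without any 1 of 7 samples (control replicates 2 and 3, IL-4 replicates 2 and 3, LPS replicate 3 and IL-4+LPS replicates 2 and 3), at 1.28 to 1.54. For Slc26a11 and Slc45a4 (0.78, adjusted p = 0.00192) the IL-4 samples were lower than control and the IL-4+LPS and LPS samples overlapped in level. Slc26a11 was at 9.79, 9.93 and 7.02 FPKM with IL-4 and at 0.742, 0.449 and 0.44 FPKM with both agents. Slc16a9, a carnitine transporter that passed the threshold in control samples alone, averaged 1.12 FPKM in control, 0.0737 with IL-4, 0.173 with LPS and 0.0683 with both.

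**Figure D5:**
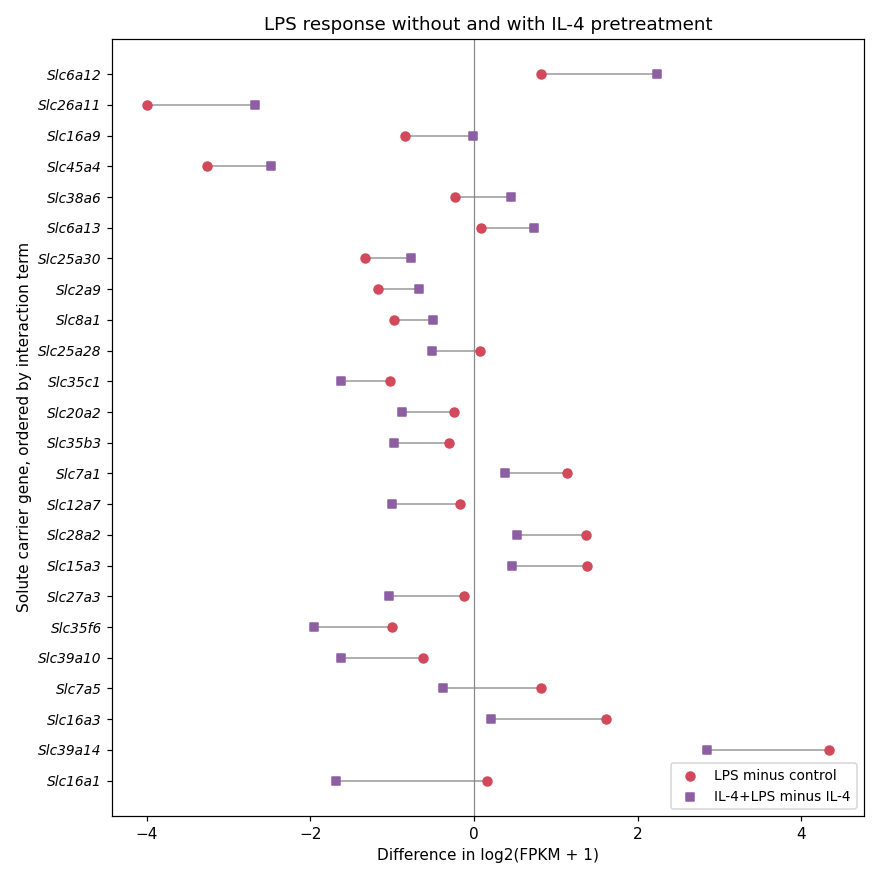
Difference in log2(FPKM + 1) made by LPS without IL-4 (circles, LPS minus control) and after IL-4 (squares, IL-4+LPS minus IL-4) on the horizontal axis, for 24 of the 25 SLC genes whose interaction term passed, ordered by the term (vertical axis); Slc27a3, Slc6a13 and Slc16a9 had reached the level threshold in 1 group alone. Slc16a1 has the widest gap to the left (0.16 and -1.68) and Slc6a12 the widest to the right (0.82 and 2.23).

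Several abundant transporters had LPS values that depended on the scaling. Slc48a1 fell with LPS by 0.44, the same as the median of all rows, and its difference was -0.07 and did not pass with median scaling. The taurine transporter Slc6a6 (-0.49) and the carnitine carrier Slc25a20 (-0.55) passed as falls on the FPKM scale and not after median scaling. The phosphate carrier Slc25a3 passed at -0.25 and changed sign with median scaling (0.12), and the call was lost without any 1 of 5 samples (control replicates 2 and 3, IL-4 replicate 3 and LPS replicates 1 and 2), at -0.28 to -0.19. The glutamine transporter gene Slc38a2 went from 17.1 to 10.9 FPKM with LPS (-0.64 ± 0.21, adjusted p = 0.016), did not pass under either scaling, and the call was lost without any 1 of 2 samples (LPS replicates 2 and 3), at -0.54. The vitamin C transporter Slc23a2 had means of 35.7 and 42.2 FPKM in control and LPS, and the folate transporter Slc46a1 of 3.66 and 0.863 FPKM (-1.34, adjusted p = 1.5e-05). Slc9a3r1, a scaffold protein with an SLC symbol, was at 40.98, 115 and 110.05 FPKM with LPS against 56.7 to 66.9 in control. It did not pass (0.35), and without replicate 1 its difference was 0.75.

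Among the SLC25 carriers, the 5 LPS rises were those of Slc25a22, Slc25a37, Slc25a17, Slc25a25 and Slc25a10. Slc25a22, a glutamate carrier, had the largest, from 8.83, 10.5 and 10.1 FPKM in control to 22.4, 32.1 and 32.2 FPKM with LPS (1.45 ± 0.14, adjusted p = 4.74e-06). Slc25a25, an ATP-magnesium and phosphate carrier, rose with both agents alone (0.49 with LPS and 0.53 with IL-4). Slc25a17 passed at 0.50, and the call was lost without LPS replicate 3, at 0.40. Slc25a37 rose with LPS (0.53, adjusted p = 0.00358) and fell with IL-4. The dicarboxylate carrier Slc25a10 passed at 0.34 with LPS, but the call was lost without any 1 of 2 samples (control replicate 1 and LPS replicate 1), at 0.23 to 0.24. Among the 24 falls were the oxoglutarate carrier Slc25a11 (-0.85), citrin Slc25a13 (-1.14), the abundant ADP/ATP carrier Slc25a4 (-0.58) and the glutathione carrier Slc25a39 (-0.83). With IL-4, 24 of the 34 carriers did not pass.

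The nucleotide sugar group, which also holds transporters of other cargo such as Slc35b1 and Slc35b2, had no rise after LPS on the FPKM scale. The deepest LPS fall was in Slc35c2, from 18.6, 26.6 and 25.2 to 6.596, 6.46 and 6.32 FPKM (-1.70 ± 0.13, adjusted p = 1.08e-06), and IL-4 lowered it too (-0.54). The CMP-sialic acid transporter Slc35a1 (-1.12), the GDP-fucose transporter Slc35c1 (-1.03) and the sulfate donor transporter Slc35b2 (-0.92) fell with LPS. The UDP-galactose transporter Slc35a2 (-0.66) fell on this scale and with median scaling but did not pass with quantile normalization, while the UDP-N-acetylglucosamine transporter Slc35a3 did not pass and had means of 11.4 and 13.5 FPKM. With IL-4, Slc35b1 and Slc35b3 rose and Slc35b2 and Slc35c2 fell, and 13 did not pass. For Slc35b2 with IL-4 the call was lost without any 1 of 5 samples (control replicates 2 and 3 and IL-4 replicates 1, 2 and 3), at -0.50 to -0.35.

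Among the metal transporters, 6 genes rose with IL-4, and of these Slc30a4 was also among the 7 that rose with LPS. The zinc importer genes Slc39a10 (0.64), Slc39a11 (0.52), Slc39a6 (0.46) and Slc39a7 (0.43) and the magnesium transporter gene Slc41a2 (0.71) were higher with IL-4, and Slc39a10, Slc39a11 and Slc39a6 were lower with LPS, although Slc39a10 did not pass under either scaling. In Slc39a6 the call was lost without any 1 of 3 samples (control replicate 1 and IL-4 replicates 2 and 3), at 0.33 to 0.45, and in Slc39a7 the call was lost without any 1 of 3 samples (control replicate 1 and IL-4 replicates 2 and 3), at 0.31 to 0.39. Of the exon bases of Slc39a7, 80.65% overlap Gm20427 on the same strand and 74.5% of its 50-base words occur there, so its reads cannot be assigned to it with certainty. Slc39a7, which releases zinc from the endoplasmic reticulum, was at 42.8, 56.2 and 53.1 FPKM in control and at 58.2, 75.2 and 71.9 FPKM with IL-4 (0.43 ± 0.12, adjusted p = 0.0155). Slc39a8, a relative of Slc39a14, was low, with means of 1.62 FPKM in control and 1.35 FPKM with LPS, and did not pass (-0.16). In all, 3 metal response genes besides the transporters were tested, of which 1 was higher with LPS, Mt2 at 4.50.

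Besides Slc9a9, the sodium proton exchanger gene Slc9a7 of the Golgi fell with IL-4 (-0.44). In Slc9a7 the fall did not pass with quantile normalization, and the call was lost without any 1 of 6 samples (control replicates 1 and 3, IL-4 replicates 2 and 3, LPS replicate 2 and IL-4+LPS replicate 3), at -0.46 to -0.30. The sodium calcium exchanger Slc8a1 fell with either agent, from 4.99, 4.28 and 4.54 FPKM in control to 1.97, 1.76 and 1.77 with IL-4 (-0.98) and 2.17, 1.69 and 1.71 with LPS (-0.97). The nucleoside transporter Slc29a1 of the cell surface and the sulfate transporter Slc26a2 were among 12 genes that passed in none of the 5 contrasts, together with Slc15a2, Slc30a7, Slc30a9, Slc35a3, Slc35d1, Slc3a2, Slc4a2, Slc7a6, Slc9a3r1 and Slc9a8. Slc29a1 ranged from 19.3 to 45.9 FPKM over the 12 samples. The phosphate transporter Slc20a1 fell with LPS (-0.66, adjusted p = 0.000198), from 9.08 to 5.36 FPKM, and did not pass with quantile normalization.

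Other transport and nutrient genes were counted the same way. Among all rows 16.9% were higher and 57.7% lower with LPS (median -0.44), and 16.0% and 21.0% with IL-4 (median -0.05). Of 28 ABC transporter genes tested, 2 were higher and 19 lower with LPS (median -0.57), and 6 higher and 11 lower with IL-4 (median -0.17). Of 16 subunit genes of the V-type proton pump, which acidifies lysosomes, 9 were higher and 1 lower with IL-4 (median 0.33), and 1 higher and 11 lower with LPS (median -0.50). P-type ion pumps had 5 higher and 8 lower of 21 with LPS and 5 and 5 with IL-4, and of 3 organic anion transporters of the Slco family 1 was higher and 1 lower with LPS. Of 12 genes of the amino acid starvation response, which also induces amino acid transporters through Atf4, 8 were higher and 1 lower with IL-4, with Psat1 at 1.67 and Asns at 1.01, and 6 were higher and 4 lower with LPS. The medians of these 12 genes were 0.72 and 0.17. Of the 6 SLC genes set aside by name, 4 were higher and 2 lower with LPS.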

How the data were processed

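Poly-A mRNA from 12 BMDM samples, 3 in each of 4 groups, was sequenced as paired reads with a kit that does not mark strand. The authors mapped the reads with TopHat2 2.0.7 and deposited 1 table of FPKM values per sample made with Cufflinks 2.0.2 on mm10 (versions per the submitters' processing notes), and the gene annotation is not given in the sources used here. FPKM keeps no counts, so the absolute depth is unknown, and each value is relative to the mapped total of its library.

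Rows of at least 1 FPKM in at least 1 of 12 samples (11191 of 23847) were tested on log2(FPKM + 1) with limma 3.58.1 in R 4.3.3, with an intensity trend, all 12 samples in one fit, moderated two-sided tests and Benjamini-Hochberg adjustment over all rows at a threshold of 0.05. The script was tested on simulated data. The 174 genes, their substrate groups and the other lists were chosen with earlier results of these data known. Named were, per contrast, the 8 genes with the largest rise and the 8 with the largest fall that passed with 1 sign in all replicate numbers (5 and 5 for the interaction), the 2 highest genes of each substrate group, the genes at the threshold and a list of well-studied transporters. A few single-gene results are not reported here. Further genes named in the substrate descriptions were chosen after their values were seen. Exon and 50-base word sharing came from GENCODE release M21 and promoters from RefSeq, and tables were handled with Python 3.11.15 and pandas 2.3.3.

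The correlation of same-numbered deviations was 0.0024 to 0.386, over 0.1 in 11 of 18 pairs and in all 6 pairs of replicate 1, so pairing by number was not taken as shown for all samples and the fit had no block. Alternatives covered pseudocount, filters, scaling, trend, replicate block, and samples left out.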

Additional observations from a re-analysis of the deposited data

Results flagged for a closer look

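Results are listed here because the LPS response differed between cells with and without IL-4, by the interaction term of limma's fit. The adjusted p is over all 11191 rows tested. It was under 0.05 in 25 SLC genes, against 4.58% of all rows with a positive and 4.63% with a negative term. In 15 genes the difference made by LPS was lower after IL-4. The term was -1.84 ± 0.22 in Slc16a1 (standard error), -1.50 ± 0.39 in Slc39a14, -1.41 ± 0.19 in Slc16a3, -1.20 ± 0.26 in Slc7a5 and -1.01 ± 0.18 in Slc39a10. It was -0.952 in Slc35f6, -0.925 in Slc27a3, -0.921 in Slc15a3, -0.846 in Slc28a2, -0.84 in Slc12a7, -0.758 in Slc7a1, -0.667 in Slc35b3, -0.639 in Slc20a2, -0.59 in Slc35c1 and -0.589 in Slc25a28.

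In 10 genes the difference made by LPS was higher after IL-4. Among them, the term was 1.42 ± 0.36 in Slc6a12, 1.33 ± 0.18 in Slc26a11, 0.84 ± 0.14 in Slc16a9 and 0.78 ± 0.11 in Slc45a4. It was 0.679 in Slc38a6, 0.639 in Slc6a13, 0.563 in Slc25a30, 0.494 in Slc2a9 and 0.478 in Slc8a1.

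The calls of 4 of the positive and 9 of the negative terms held in all 12 fits with 1 sample left out. In Slc28a2 the call was lost without any 1 of 10 samples (control replicates 2 and 3, IL-4 replicates 1, 2 and 3, LPS replicates 2 and 3 and IL-4+LPS replicates 1, 2 and 3), at -0.92 to -0.72, in Slc7a1 the call was lost without any 1 of 7 samples (IL-4 replicates 1, 2 and 3, LPS replicates 2 and 3 and IL-4+LPS replicates 2 and 3), at -0.79 to -0.69, and in Slc6a13 the call was lost without any 1 of 11 samples (control replicates 1, 2 and 3, IL-4 replicates 1, 2 and 3, LPS replicates 1, 2 and 3 and IL-4+LPS replicates 2 and 3), at 0.56 to 0.70. The potassium chloride cotransporter gene Slc12a7 was at 17.01, 20.99 and 20.7 FPKM in control, 19.4, 26.9 and 25.5 with IL-4, 15.1, 18.5 and 18.3 with LPS and 12.2, 10.8 and 10.99 with both, lowest where both were given. The GDP-fucose transporter gene Slc35c1 was at 10.9, 12.9 and 12.6 FPKM in control, 10.9, 13.1 and 13.1 with IL-4, 6.06, 4.999 and 5.24 with LPS and 3.497, 3.05 and 3.43 with both. Slc27a3, Slc6a13 and Slc16a9 reached the level threshold in samples of 1 group alone. The rule favoured a difference between groups in them, so their terms are given as a description.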

How the results depend on the processing

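With a minimum of 2-fold beside the adjusted p, 17 genes were higher and 42 lower with LPS, 9 and 8 with IL-4, 11 and 41 between IL-4+LPS and IL-4, and 6 and 9 between IL-4+LPS and LPS, and the interaction term was positive in 3 and negative in 5, fewer by the construction of the rule. The 2-fold counts were not made over all rows, so they describe these genes alone. Quantile normalization left 72 genes lower with LPS, against 38.7% of all rows. The 10 positive interaction terms became 6 with a pseudocount of 0.1 and 6 with no filter on low values. Over all rows tested the 512 positive terms became 348 and 487. With the replicate block there were 19 positive and 24 negative terms, 29 genes higher and 124 lower with LPS and 46 and 48 with IL-4, and 9 of the 12 samples correlated best with their own number. Over all 11191 rows the block took the terms from 512 positive and 518 negative to 1145 and 1095. Over the same rows the LPS calls went from 1887 higher and 6462 lower to 2169 and 7013, and the IL-4 calls from 1795 and 2346 to 2402 and 3183. The cause of these differences was not tested. Leaving out samples, singly or as replicate 1 in all groups, gave 24 to 29 genes higher and 101 to 124 lower with LPS, 27 to 48 and 33 to 53 with IL-4, 26 to 33 and 105 to 120 between IL-4+LPS and IL-4, 24 to 45 and 30 to 57 between IL-4+LPS and LPS, and 4 to 27 positive and 9 to 32 negative terms. Over all rows those fits gave 1712 to 2178 higher and 5990 to 7032 lower with LPS. With IL-4 they gave 1295 to 2406 and 1749 to 3286. Between IL-4+LPS and IL-4 the counts were 1545 to 1951 and 5950 to 7143. Between IL-4+LPS and LPS they were 1327 to 2351 and 1332 to 2901. Terms were positive in 311 to 1481 rows and negative in 334 to 1386. Of the values of single genes named by rule, 6739 kept direction and side of the threshold, 330 were no longer past it, 191 newly passed it and 5 turned over. These were, with LPS, Slc25a3 (0.12) and Slc35b1 (0.05) under median scaling and Slc2a3 (0.15) under quantile normalization, and, for LPS after IL-4, Slc15a4 (0.08) and Slc25a5 (0.038) under median scaling. Slc20a2, outside that rule, turned from -0.25 to a rise of 0.34 with LPS under quantile normalization. Depth, unknown here in counts, limits genes near 1 FPKM such as Slc27a3, Slc16a9 and Slc6a13.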
